A study of Mus musculus with 6 samples.

Results

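The cytosolic ribosomal protein genes were followed in methylation maps of lung endothelial cells from wild-type mice. A gene was taken as a member when its symbol is Rpl or Rps followed by a digit, or Rpsa, Rplp0, Rplp1 or Rplp2, when RefSeq lists it as protein-coding on an mm10 autosome, and when its symbol does not start with Rps6k. The rule used the symbol, the RefSeq class and the chromosome, and no measured value. The gene family itself was chosen with earlier results of these data known. It gave 87 of the 20665 protein-coding autosomal genes, and another 4 (Rpl39, Rpl10, Rps4x and Rpl36a) were left out because they lie on the X chromosome. Of the 87, 43 carry names of large (60S) subunit or stalk proteins and 30 of small (40S) subunit proteins, and these 73 are called the core genes below. The other 14 are 8 paralogs (Rpl3l, Rpl7l1, Rpl10l, Rpl22l1, Rpl32l, Rpl36al, Rpl39l and Rps27l), 5 genes whose symbols mark retrocopies or former pseudogenes (Rpl37rt, Rps27rt, Rps23rg1, Rpl34-ps1 and Rpl31-ps12), and Rps19bp1, which is a binding partner of the 40S protein RPS19 and not a ribosomal protein.

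Ribosomal proteins assemble with ribosomal RNA into the subunits that translate messenger RNA, and almost every cell needs nearly all of them at once. Their promoters are known for CpG islands, which usually stay free of DNA methylation, and for a short run of pyrimidines at the first transcribed bases, the 5′ terminal oligopyrimidine tract, through which mTOR signalling tunes translation of their transcripts. The genes have also left many retrotransposed copies in mammalian genomes, a few of which became genes of their own, often with expression restricted to testis or muscle.

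The assay was bisulfite sequencing of whole genomes after tagmentation, on flow-sorted lung endothelial cells. There were 3 samples labelled mAdu and 3 labelled Aged. The study compared wild-type mice of 8 and 18 months, and mAdu is taken here as the younger and Aged as the older age, which the labels do not spell out. All groups carried the wild-type genotype and no treatment. The sources used here do not give sex, the number of mice behind a sample or whether samples came from separate animals, so p-values measure the spread between these samples only. The values are the authors' mean methylation per window of 1000 bp. They are printed as percent, that is 100 times the deposited fraction. The read coverage behind a window is unknown, so no counting interval can be given, and precision was judged from the spread of the samples.

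Of 1684140 windows, 1683697 on 19 autosomes had a value in every sample, and 718 of them overlapped a member's span plus 2000 bp on each side. A member had 3 to 17 such windows, with a median of 8. Mean methylation over all windows lay between 73.1% and 73.7% in the 6 samples. Start regions of all protein-coding genes had a median of 25.7%. Those of 14 endothelial identity genes had a median of 10.1%, with 9 of 14 under 20%. Start regions of 9 haematopoietic markers had a median of 72.0%, with 0 of 9 under 20%, and those of 9 epithelial and 8 mesenchymal markers had medians of 24.7% and 26.0%, with 2 and 3 under 20%. Methylation at these starts is a check on the labelled cell type and does not measure a share of cells.

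The starts of several core genes and of their copies are printed first, because the copies show where methylation at a ribosomal protein gene was high and where it was not. Each sequence runs 5′ to 3′ on the gene's strand and holds 130 bases before the annotated RefSeq start and the first 20 transcribed bases, in GRCm38.p6, the assembly of mm10. Capitals mark CpG sites, the positions that can be methylated. Rps27, at chr3:90213629-90213778 (minus strand), encodes a 40S protein. Rps27l, at chr9:66945956-66946105 (plus strand), is its paralog, and Rps27rt, at chr9:114982720-114982869 (minus strand), its retrocopy. Rpl37, at chr15:5116483-5116632 (plus strand), and its retrocopy Rpl37rt, at chr5:115110249-115110398 (minus strand), carry names of a 60S protein, as do Rpl31, at chr1:39367721-39367870 (plus strand), and Rpl31-ps12, at chr16:16820177-16820326 (minus strand). Rpl39l, at chr16:10170098-10170247 (plus strand), is a paralog of Rpl39 known from male germ cells, and Rpl3l, at chr17:24727696-24727845 (plus strand), is a paralog of Rpl3 known from heart and skeletal muscle.

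Rps27: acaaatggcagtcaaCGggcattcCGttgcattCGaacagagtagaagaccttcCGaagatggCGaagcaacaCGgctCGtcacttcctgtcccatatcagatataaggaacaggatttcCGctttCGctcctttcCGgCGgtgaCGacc
Rps27l: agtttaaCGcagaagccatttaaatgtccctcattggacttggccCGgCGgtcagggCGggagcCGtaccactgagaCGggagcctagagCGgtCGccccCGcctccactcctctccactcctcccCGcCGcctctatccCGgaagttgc
Rps27rt: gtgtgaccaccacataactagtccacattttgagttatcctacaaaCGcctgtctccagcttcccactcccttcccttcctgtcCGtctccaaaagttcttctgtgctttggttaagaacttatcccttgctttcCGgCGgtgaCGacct
Rpl37: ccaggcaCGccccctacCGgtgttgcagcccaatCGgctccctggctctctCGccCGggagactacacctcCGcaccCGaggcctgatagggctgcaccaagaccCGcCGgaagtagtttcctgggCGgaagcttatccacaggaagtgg
Rpl37rt: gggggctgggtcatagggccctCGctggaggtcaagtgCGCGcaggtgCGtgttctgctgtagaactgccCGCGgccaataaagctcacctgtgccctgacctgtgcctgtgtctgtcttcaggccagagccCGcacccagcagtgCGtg
Rpl31: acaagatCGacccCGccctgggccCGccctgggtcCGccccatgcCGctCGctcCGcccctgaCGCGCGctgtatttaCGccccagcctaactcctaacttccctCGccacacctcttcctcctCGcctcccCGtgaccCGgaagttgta
Rpl31-ps12: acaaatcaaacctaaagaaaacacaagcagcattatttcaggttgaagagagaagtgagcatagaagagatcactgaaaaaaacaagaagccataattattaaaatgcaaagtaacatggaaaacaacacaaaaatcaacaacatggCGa
Rpl39l: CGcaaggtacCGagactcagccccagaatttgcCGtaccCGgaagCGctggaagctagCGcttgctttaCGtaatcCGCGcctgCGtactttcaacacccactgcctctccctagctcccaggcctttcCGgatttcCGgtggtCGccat
Rpl3l: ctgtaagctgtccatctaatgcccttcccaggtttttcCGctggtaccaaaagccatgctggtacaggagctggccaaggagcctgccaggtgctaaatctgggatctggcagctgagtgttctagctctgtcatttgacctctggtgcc

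The printed stretch held 12 CpG sites at Rps27, 12 at Rps27l and 5 at Rps27rt. It held 10 at Rpl37 and 8 at Rpl37rt, 15 at Rpl31 and 1 at Rpl31-ps12, 13 at Rpl39l, and 1 at Rpl3l. Rps27 and Rps27rt shared a run of 19 identical bases in their first transcribed bases, while the longest run shared by Rpl37 and Rpl37rt was 8 bases and that by Rpl31 and Rpl31-ps12 was 6.

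The starts of nearly all core genes were almost free of methylation in every sample. RefSeq's promoter table gave a start for 66 members, 53 of them core genes, and the window that holds the start base (the start window) was read for each. This window was chosen after the values had been seen, because the start region used for the tests below usually spans more than 1 window and mixes in a methylated neighbour. Methylation of the start window had a median of 1.16% over the 53 core genes, and 52 of them (98.1%) were under 20%. Over all 15101 protein-coding genes with such a window the median was 4.85%, and 65.8% were under 20%. The 69 mitochondrial ribosomal protein genes with such a window, another set of housekeeping genes, had a median of 1.82%, and 66 of them (95.7%) were under 20%.

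Among the 60S genes, Rpl35a, Rpl13 and Rpl27a had the lowest start windows. Rpl35a measured 0.229%, 0.425% and 0.163% in the mAdu samples and 0.179%, 0.972% and 0.555% in the Aged samples. The groups overlapped, and every sample was under 1%. Rplp0, which anchors the acidic stalk that recruits translation factors, measured 2.60%, 2.52% and 2.41% in mAdu and 2.65%, 5.24% and 2.82% in Aged. Its Aged samples were all above its mAdu samples, with most of the distance in 1 Aged sample. Rplp2, a phosphoprotein of the same stalk, measured 0.445%, 2.95% and 0.374% in mAdu and 0.698%, 0.554% and 0.430% in Aged. Here 1 mAdu sample stood above the other samples. Rpl5 and Rpl11 bind the 5S ribosomal RNA and can hold back Mdm2 when ribosome assembly fails. Their start windows were among the higher ones of the core genes. Rpl5 measured 10.02%, 8.64% and 8.37% in mAdu and 7.89%, 9.30% and 7.74% in Aged. Rpl11 measured 7.71%, 6.92% and 5.28% in mAdu and 6.34%, 9.24% and 7.35% in Aged. Both genes overlapped between the groups, and their start windows stayed above 5% in every sample. The rank did not hold over the start regions used for the tests below. There Rpl5 had a mean of 7.83% and Rpl11 of 4.14%, under the core median of 10.3%.

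Among the 40S genes, Rps28 was lowest of all core genes with 0.229%, 0.533% and 0.389% in mAdu and 0.430%, 0.203% and 0.299% in Aged. Rps19, whose human counterpart is mutated in Diamond-Blackfan anaemia, measured 0.707%, 0.473% and 0.962% in mAdu and 0.422%, 0.619% and 0.733% in Aged. Both were under 1% in every sample with overlapping groups. Rps3, a 40S protein at the messenger RNA entry channel, measured 2.52%, 0.602% and 0.182% in mAdu and 0.739%, 0.563% and 0.382% in Aged, and 1 mAdu sample stood above the rest. Rps6, the 40S protein phosphorylated by S6 kinase, measured 1.08%, 0.424% and 1.85% in mAdu and 0.337%, 0.662% and 0.221% in Aged. Rpsa, which is also known as a laminin receptor, measured 3.77%, 4.29% and 5.31% in mAdu and 5.92%, 1.53% and 4.66% in Aged. The groups overlapped for Rps6 and Rpsa. Rps24 had the highest start window of the 40S genes, with 10.3%, 15.1% and 12.9% in mAdu and 14.5%, 14.5% and 11.9% in Aged, and no sample reached 20%.

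**Figure D1:**
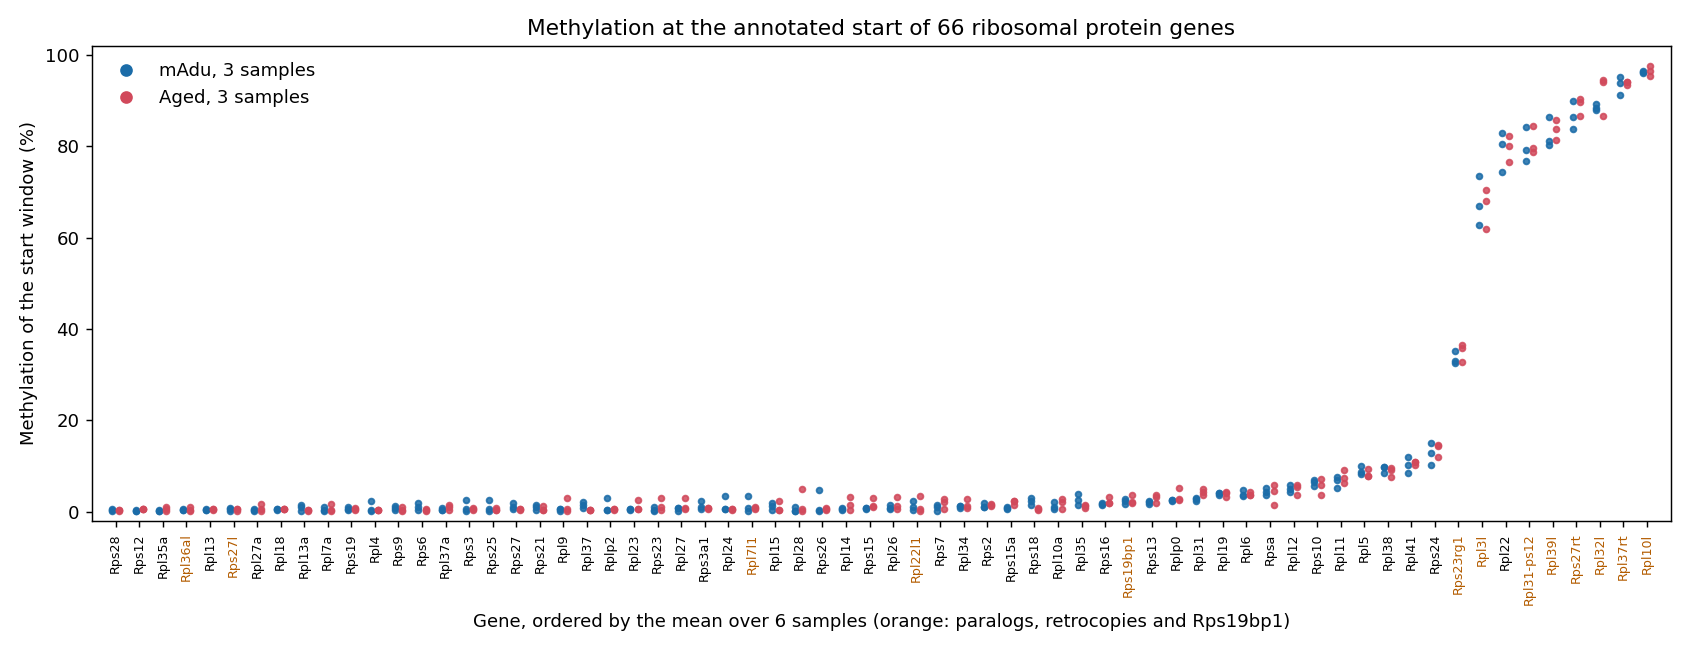
Methylation (percent, y axis) of the window holding the annotated start of 66 members (x axis, ordered by the mean of 6 samples), with 1 point per sample in blue for mAdu and red for Aged. Core genes named in black lie under 20% except Rpl22, and the 8 genes above 50% lie between 67.3% and 96.4%.

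Rpl22 was the 1 core gene whose annotated start was methylated. Its upstream start window, chr4:152324001-152325000, measured 82.9%, 80.5% and 74.4% in mAdu and 76.6%, 82.3% and 80.1% in Aged. RefSeq's table holds another Rpl22 start downstream, and its window, chr4:152325001-152326000, measured 10.4%, 8.96% and 11.9% in mAdu and 9.37%, 9.30% and 11.1% in Aged. The groups overlapped at both starts, and at each start the 6 samples lay far from those of the other. The next window downstream was the lowest of the locus, with a mean of 2.01%. Rpl22l1, the paralog that can stand in for Rpl22, had 1.10%, 2.35% and 0.456% in mAdu and 0.565%, 0.172% and 3.50% in Aged.

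For the 20 core genes without a start in the promoter table, the locus was described by its least methylated window, which is a choice by level and so only a description. Every core gene had at least 1 window under 20% in its span plus flank. The lowest window had a median of 0.952% over the 73 core genes, and the highest was 6.999% at Rpl5. Of genes in general, 72.3% had a window under 20%, and of those with 3 to 17 windows, 58.7%. All 78 mitochondrial ribosomal protein genes had such a window too, with a median of 1.59%. The lowest window measured 0.390% at Rpl3, the 60S protein near the peptidyl transferase centre, and 0.637% at Rplp1, the third stalk protein. In 13 of the 73 core genes the lowest window held the start or end of another protein-coding gene. A window wholly inside another gene was not counted there. In the other 60 the lowest window held no such edge. At Rpl35a it lay past the gene's end, 131 bp from an edge of Lmln. At Rplp0 it lay at chr5:115565001-115566000 beside Gcn1 and not at the gene's own start. Rpl17 had 73.9% at the gene end used as its start region and 1.06% in its lowest window, which lies inside the gene. Of the 53 core genes with an annotated start, the lowest window held the start base in 40.

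The low methylation at core starts reached further downstream than upstream. At the start window the median over core genes was 1.16%, at 1 kb upstream it was 51.7% and at 1 kb downstream 10.2%. Over all protein-coding genes the same positions had medians of 4.85%, 59.2% and 37.8%, and over mitochondrial ribosomal protein genes 1.82%, 45.7% and 49.2%. By 2 kb the core genes had returned to 81.9% upstream and 68.1% downstream. The downstream neighbour of the start window was under 20% in 33 of 53 core genes (62.3%), against 42.1% of all protein-coding genes, and the upstream neighbour in 10 (18.9%), against 24.4%. The downstream neighbour was the lower of the pair in 40 of 53 core genes (75.5%) and in 60.7% of all genes. These shares are across genes, which are not replicates, and carry no test.

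**Figure D2:**
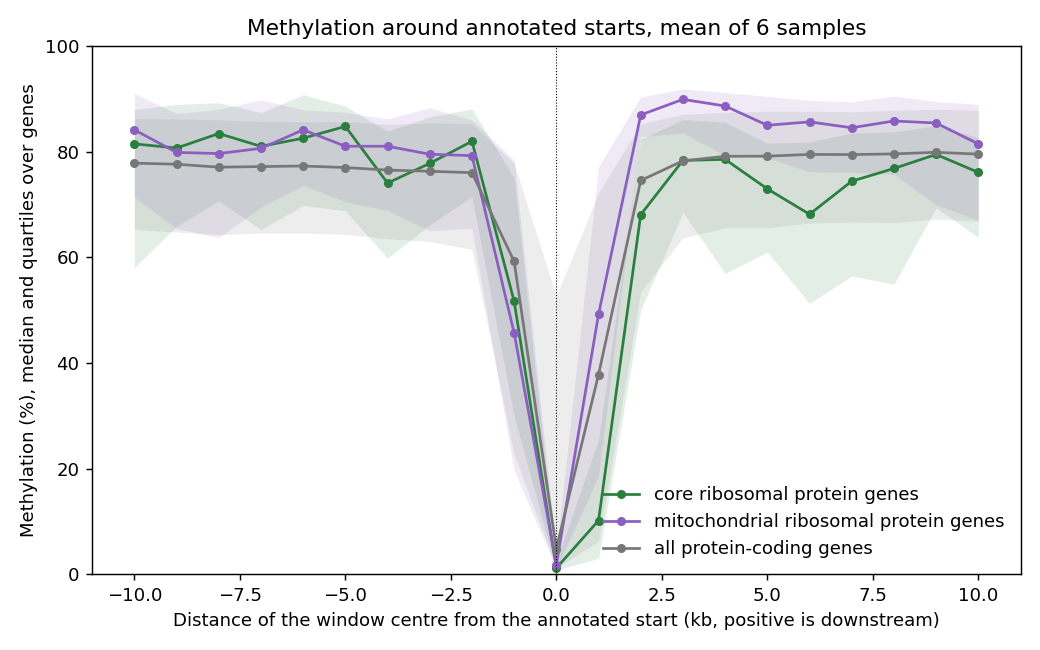
Median methylation (percent, y axis) of windows by distance of the window centre from the annotated start (kb, x axis, positive downstream), averaged over 6 samples, with shading between the quartiles over genes. The core genes (green) have a median of 10.2% at 1 kb downstream, where all protein-coding genes (grey) have 37.8% and mitochondrial ribosomal protein genes (purple) 49.2%.

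Over the start regions used for the tests, Rpl9, Rps6, Rpl7a and Rpl15 were among the lowest members, with means of 0.861%, 1.10%, 1.20% and 1.37%.

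Counted as consecutive windows under 20%, the stretch at an annotated core start had 2 windows in 35 of 53 genes, 1 in 13, 3 in 4 and none in Rpl22. The median was 2 windows over these core genes and 1 over 15728 protein-coding genes, of which 5267 had none. No core gene exceeded 3 windows, whereas 868 of all protein-coding genes (5.52%) did, and the longest stretch among those had 43. Rps12, Rps9, Rpl27a, Rpl41 and Rpl7 had 3 windows, the longest among all members. The length of the stretch was the same in all 6 samples for 82 of the 87 members. Over their whole span plus flank, 162 of the 718 member windows (22.6%) were under 20%, compared with 4.54% of the windows at all protein-coding genes. Longer genes add windows far from a start to that share. At protein-coding genes with 3 to 17 windows, as the members have, it was 13.5%. The count was 161 to 163 in each of the 6 samples.

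Gene bodies of most members were methylated. A body here is the mean of the windows that lie wholly inside the gene and off the start region. It could be measured in 67 members, 24 of them from a single window, because these genes are short. The median body level was 67.5%, against 76.0% for all protein-coding genes and 83.7% for mitochondrial ribosomal protein genes. These sets were not matched for gene length. Rps20 had the lowest body with 9.81%, 10.7% and 12.8% in mAdu and 11.7%, 8.61% and 12.1% in Aged, followed by Rpl27a (mean 19.2%), Rps9 (19.7%), Rpl37a (24.4%) and Rps15 (25.5%). Rps13 had the highest with 90.7%, 88.2% and 89.6% in mAdu and 91.3%, 93.8% and 92.9% in Aged, followed by Rplp2 (mean 90.2%), Rps27l (88.2%) and Rpl37 (85.2%). At Rps20, Rps9 and Rpl27a the body holds a window under 20% that belongs to the unmethylated stretch at the start, so these levels are not separate from the stretch. In all, 11 of the 67 bodies held a window under 20%. The lowest and highest bodies named here did not overlap in any sample. Many members host small nucleolar RNAs in their introns, RNAs that guide chemical modification of ribosomal RNA. In the annotation 28 of 87 members (32.2%) held 57 of them, compared with 355 of all protein-coding genes (1.72%).

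The paralogs differed among themselves at their starts. Rps27l, Rpl36al, Rpl7l1 and Rpl22l1 had start windows like those of core genes, with means of 0.530%, 0.469%, 1.13% and 1.36%. Rpl3l, Rpl39l, Rpl32l and Rpl10l had means of 67.3%, 83.1%, 90.2% and 96.4%. Rpl10l, an intronless copy of the X-linked Rpl10 that is known to act in male meiosis, measured 96.1%, 96.6% and 96.3% in mAdu and 97.6%, 96.4% and 95.4% in Aged. Rpl39l measured 81.1%, 80.3% and 86.4% in mAdu and 85.8%, 83.9% and 81.3% in Aged. In both genes every sample was above 80% and the groups overlapped. Another listed start of Rpl3l had a mean of 76.6%, and the only low window of its locus, chr17:24736001-24737000 with a mean of 10.3%, touches the neighbour Msrb1. Rps19bp1 had a start window of 2.47%.

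The retrocopies stood apart from their parents in each sample. Rps27 measured 0.601%, 1.15% and 1.86% in mAdu and 0.307%, 0.618% and 0.512% in Aged. Rps27rt measured 90.03%, 83.9% and 86.5% in mAdu and 89.6%, 86.7% and 90.3% in Aged. The retrocopy's window was above 80% in every sample and the parent's under 2%. The printed starts share 19 bases and 3 CpG sites within them. The values are means of whole windows, so methylation at those shared sites is not known. Rpl37 had a mean of 0.906% and Rpl37rt of 93.7%, and Rpl31 had 3.55% and Rpl31-ps12 80.5%. Rps23rg1 was intermediate, with 33.0%, 35.1% and 32.6% in mAdu and 36.5%, 32.7% and 36.0% in Aged, beside a mean of 0.986% at Rps23. Rpl34-ps1, which has no start in the promoter table, had 61.5% at its start region and its lowest window at 40.8%.

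**Figure D3:**
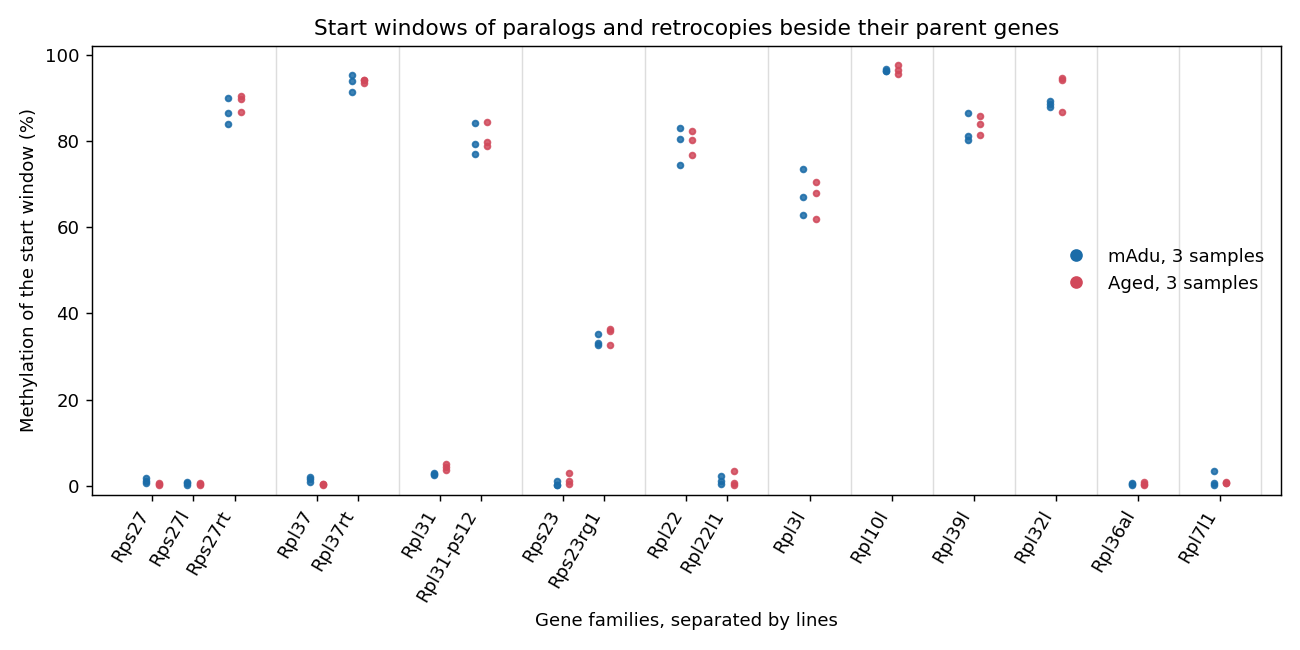
Methylation (percent, y axis) of the start windows of paralogs and retrocopies beside their parent genes (x axis, families separated by lines), with 1 point per sample in blue for mAdu and red for Aged. Rps27rt, Rpl37rt and Rpl31-ps12 lie above 75% in every sample while Rps27, Rpl37 and Rpl31 lie under 6%.

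Pseudogenes with matching symbols gave a further comparison. The 265 that lie on autosomes and were measured had a median of 85.6% over their own span without flank, with a range of 32.1% to 96.8%, and 0 of them were under 20%. Core genes measured the same way had a median of 43.3%, and 5 of 73 (6.85%) were under 20%. Of the 87 members, 59 have at least 1 pseudogene named after them, and Rpl31 and Rps12 have 23 each. Whether reads from such copies were placed at the parent gene, or the reverse, was not tested, so levels inside exons of these genes are uncertain.

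CpG content of the promoter differed between the methylated and the unmethylated starts. In the 300 bases from 250 before to 50 after the annotated start, the 57 members with a start window under 20% had a median of 23 CpG sites (range 8 to 42). The 8 members above 50% had a median of 8.5 (range 2 to 17), and all 16457 promoters had 14. The ranges met between 8 and 17. Rpl39l held 17 CpG sites and had a mean of 83.1%, while Rps23 held 14 and had 0.986%, and Rpl6 held 8 and had 3.99%.

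**Figure D4:**
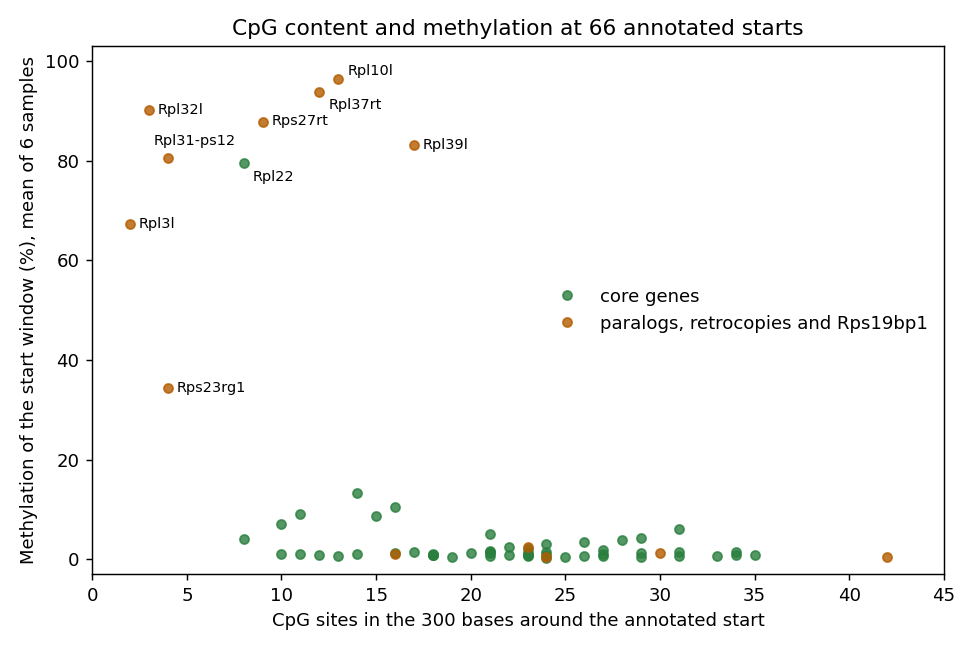
Mean methylation of the start window over 6 samples (percent, y axis) against the number of CpG sites in the 300 bases around the annotated start (x axis) for 66 members, green for core genes and orange for the others. The 8 genes above 50% have 2 to 17 CpG sites, and the 57 genes under 20% have 8 to 42.

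Motifs in the core promoters were counted as a description. The ETS core CCGGAA, searched on both strands as all motifs here, was present in 27 of 53 core promoters (50.9%) and in 19.6% of all promoters. The YY1 motif AAGATGGC was present in 5 (9.43%) against 3.21%, the cyclic AMP response element TGACGTCA in 5 (9.43%) against 2.40%, and the GC box GGGCGG in 31 (58.5%) against 47.3%. The TATA box TATAAA was present in 4 (7.55%) against 13.5%, and CCAAT in 16 (30.2%) against 39.1%. The E-box CACGTG was present in 5 (9.43%) against 7.97%, and the palindromic NRF1 motif in 1 (1.89%) against 1.37%. A pyrimidine start, meaning C as the first transcribed base and only C or T in the 5 bases from the one before it, was found in 12 of 53 (22.6%) and in 2.40% of all promoters. The count needs an annotated start that is exact to the base, so it does not show which other genes lack the tract. Rps27, Rps6, Rps18, Rpl35, Rps15a and Rplp2 were among the 12 core genes with a pyrimidine start.

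No member differed between the age groups at an adjusted p of 0.05. Differences are Aged minus mAdu in percentage points, tested with limma on all features of a kind and adjusted by the Benjamini-Hochberg method over that whole table. Over spans plus flank 0 of 87 members were called, where the background was 0% of 20463 genes. At start regions, taken as 500 bp on each side of the start, 0 of 87 were called against 0.0152% of genes. For the 21 members without an annotated start, the start region was the less methylated gene end. Over bodies 0 of 67 were called against 0%, and of single windows 0 of 718 against 0.0211%. At start windows 0 of 66 were called against 0.0199%. The smallest adjusted p among members was 0.945 for spans, 0.948 for start regions, 0.945 for bodies, 0.978 for windows and 0.921 for start windows.

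Before adjustment, a p under 0.05 was reached by 3 of 87 spans against 4.76% of all genes, 3 of 87 start regions against 4.67%, 4 of 67 bodies against 4.96%, 15 of 718 windows against 4.67% and 4 of 66 start windows against 4.05%. The 3 samples of each group did not overlap in 6 spans against 9.88% of genes, 10 start regions against 10.1%, 4 bodies against 9.86%, 83 windows against 10% and 9 start windows against 10.1%. As shares, the unadjusted counts were 3.45% for spans and start regions, 5.97% for bodies, 2.09% for windows and 6.06% for start windows.

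Differences were described by their median and by their intervals. The median over members was 0.0799 points for spans, beside a median of -0.0427 over all genes, and 46 of 87 members were higher in Aged. For start regions it was 0.303 beside 0.0382, with 56 of 87 higher, and for bodies -0.111 beside -0.0404, with 31 of 67 higher. At start windows it was 0.141 beside 0.0399, with 39 of 66 higher. Of all genes, 47.3% were higher in Aged over spans, 51.4% at start regions, 47.7% over bodies and 52.0% at start windows. The members' shares, in that order, were 52.9%, 64.4%, 46.3% and 59.1%. The 95% limma interval excluded differences over 5 points in either direction for 84 of 87 members over spans (73 of 73 core genes), 74 of 87 over start regions (64 of 73) and 59 of 66 at start windows (52 of 53, without Rpl22). For bodies it did so in 36 of 67 members, and for single windows in 201 of 718. At the start region of Rpl27 the interval ran from -1.06 to 9.47 points. Where the interval was wider, a difference of that size was not excluded. The mean over the 87 spans was 54.8%, 54.7% and 54.7% in mAdu and 54.7%, 54.6% and 55.0% in Aged.

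**Figure D5:**
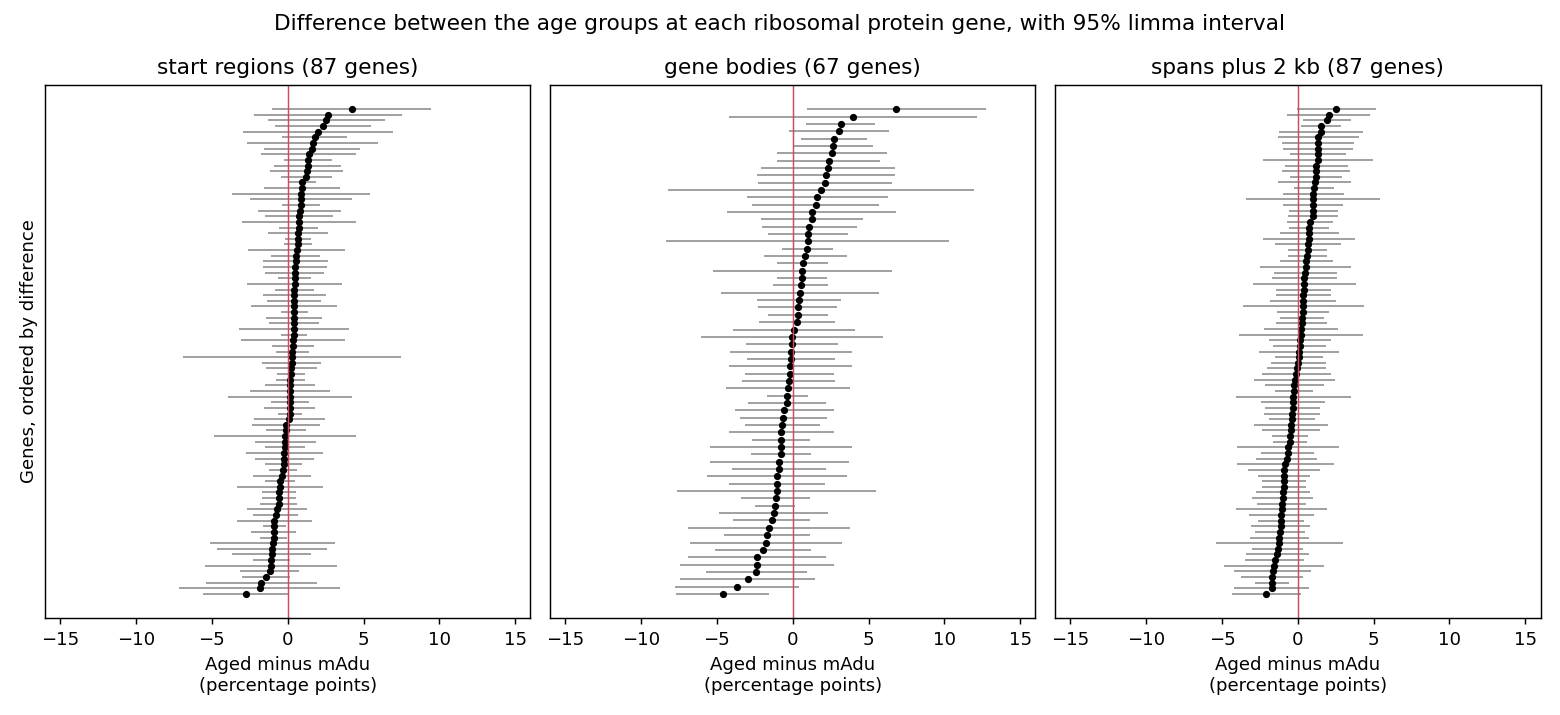
Aged minus mAdu difference (percentage points, x axis) of each member with its 95% limma interval, ordered by size (y axis), for start regions, bodies and spans plus 2 kb. Intervals are widest for gene bodies, and no member passed the adjusted threshold in any panel.

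The members with the smallest unadjusted p are given by name, and none of them passed. Over spans, Rpl30, a 60S protein, measured 59.4%, 59.1% and 59.8% in mAdu and 57.7%, 58.0% and 57.6% in Aged, a difference of -1.68 points (95% interval -2.80 to -0.551, limma adjusted p = 0.945). Its groups did not overlap. The other spans lower in Aged were Rps20, Rps27a, Rpl27a and Rps15a, with -2.08, -1.67, -1.52 and -1.31 points. Over the span of Rps20 with no flank the difference was 0.0260 points. On the higher side, Rps21 measured 47.0%, 46.4% and 46.8% in mAdu and 47.7%, 48.5% and 48.5% in Aged, and Rpl10l, Rpl34-ps1, Rpl39l and Rpl36 differed by 1.94, 2.54, 2.04 and 1.05 points.

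At start regions, Rps6 measured 1.39%, 1.47% and 1.80% in mAdu and 0.466%, 0.926% and 0.577% in Aged, a difference of -0.897 points (adjusted p = 0.948 with limma). With 1000 bp on each side of the start its difference was 1.47 points, in the other direction. Rps18 followed with -0.926, then Rps27a with -2.74, Rpl30 with -1.41 and Rpl35 with -1.07. In the other direction Rps16 measured 1.54%, 1.70% and 1.54% in mAdu and 2.70%, 3.03% and 1.92% in Aged. Rpl31, Rpl8, Rps23 and Rpl27 differed by 1.35, 1.77, 0.691 and 4.21 points. The groups did not overlap for Rps6, Rps18, Rpl30, Rps16, Rpl31, Rpl8 and Rps23, and they overlapped for the other 3. Rps27a, Rpl30 and Rpl8 have no annotated start, so their values are from the less methylated gene end. At start windows Rps18 had 2.39%, 1.57% and 3.06% in mAdu and 0.573%, 0.480% and 0.874% in Aged, Rps15a differed by 1.33 points, Rpl31 by 1.59 and Rpl37 by -1.10, each with a limma adjusted p of 0.921.

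In bodies, Rps25 measured 84.1%, 88.3% and 85.7% in mAdu and 82.9%, 81.1% and 80.2% in Aged, a difference of -4.62 points (95% interval -7.70 to -1.54, limma adjusted p = 0.945). Rps9, Rpl5, Rps26 and Rpl35 were the others on the lower side, with -3.68, -1.17, -2.41 and -2.97 points. Rpl39l had the widest difference, with 81.3%, 77.7% and 74.0% in mAdu and 88.3%, 81.9% and 83.3% in Aged. Its body is 1 window, the groups did not overlap, and the 95% interval ran from 0.909 to 12.7 points. Rps13, Rpl27, Rpl3l and Rpl11 differed by 3.15, 2.73, 2.63 and 3.04 points. The bodies of Rps25, Rps9, Rps26 and Rps13 are also 1 window each.

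Of single windows, the smallest p belonged to the flank of Rps20 at chr4:3830001-3831000, with 88.6%, 97.9% and 91.9% in mAdu and 82.8%, 79.2% and 85.4% in Aged. The groups did not overlap, and the difference of -10.3 points had a limma adjusted p of 0.978. The others on the lower side were windows at Rpl13 (-7.21 points), Rpl27a (-8.51) and Rps9 (-7.23 and -7.04). On the higher side were windows at Rpl39l (6.82 points), Rpl10l (5.41), Rpl31 (1.59), Rps19bp1 (6.41) and Rps13 (3.15). The windows of Rpl39l and Rps13 are those given above as their bodies, and that of Rpl31 is its start window. These are the same values and not separate results.

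Genes that work with the ribosome had no calls either. The lists held 52 ribosome biogenesis genes, 37 translation factors, 15 other genes outside the symbol rule and 9 genes of p53 and ribosomal stress. The 15 were listed as ribosome-associated or oligopyrimidine-tract genes, but also hold the mTOR signalling genes Rptor and Rps6kb2. In these lists 0 genes were called over spans, start regions or bodies. Their start regions had medians of 10.5%, 6.64%, 4.32% and 11.6%, and those of the core genes had a median of 10.3%. Over spans their median differences were -0.139, -0.235, -0.405 and 0.254 points, with 23 of 52, 11 of 37, 2 of 15 and 7 of 9 genes higher in Aged. The share higher in Aged over all genes was 47.3%. Of the 78 mitochondrial ribosomal protein genes 0 were called, and the median difference over spans was -0.0419 points.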

How the data were processed

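Flow-sorted lung endothelial cells were profiled by tagmentation whole-genome bisulfite sequencing from 30 ng of DNA, with 3 libraries per sample and 100 bp paired-end reads, per the labels' protocols. BWA 0.7.8 and mm10 are named in the submitters' processing notes. The authors deposited mean methylation as a fraction per 1000 bp window and sample. Methylation caller, coverage filter and weighting of CpG sites: not given in the sources used here. Depth is unknown. Means over CpG sites shift with which sites a window holds.

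Fractions were multiplied by 100, windows with a missing value left out, and windows averaged without weights over spans plus 2000 bp, start regions and bodies. Start regions covered 500 bp on each side of the RefSeq start for 66 members. For the other 21 the less methylated gene end (1000 bp outside to 500 bp inside) was taken, a choice by level. Of several listed starts, the one nearest the gene's 5′ edge was used. limma 3.58.1 in R 4.3.3 (group as the only term, variance trend, two-sided, Benjamini-Hochberg at 0.05) was fitted to each whole table. It was tried on simulated data for spans, start regions and bodies, but not for windows or start windows. That outcome is not given here. Named members were the 5 with the smallest p in each direction where none passed, the 5 highest and lowest at starts and bodies, starts above 50%, the longest stretches and a set of well-known genes. Alternatives were leave-one-out, a replicate block, a logit scale, no variance trend, no extreme windows, and other flanks, start widths and body minimums. The members and lists were chosen with earlier results of these data known. Sequences are from RefSeq tables (GRCm38.p6), which matched 66 of 87 members by gene identifier. Values of some named members are not reported here.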

Additional observations from a re-analysis of the deposited data

How the results depend on the processing

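No member was called under any alternative tried for spans, start regions, bodies or windows (0 to 0 calls when each sample was left out in turn). In the same fits the median difference ran from -0.123 to 0.186 points for spans, 0.162 to 0.340 for start regions, -0.0992 to 0.377 for bodies and -0.105 to 0.141 for windows, so its sign rested on single samples for all but start regions. A span plus 5000 bp gave -0.0725. Of 449 recomputed values of named members, 446 kept their direction and side of the threshold. The sign turned for Rps20 over the span with no flank (0.0260 points). It also turned for Rps6 with 1000 bp on each side of the start (1.47) and with the less methylated gene end (1.47). At Rps6 both settings add the same window upstream of the start, so they are not separate results. The cause was not tested. Samples sharing a number across groups did not deviate together (correlations over spans of -0.122, -0.0369 and 0.00920), and with the replicate number as a block 0 members were called. The start window, chosen after seeing the data, gave 0 calls and a median difference of 0.141. The coverage behind the values is unknown.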
